A study of Mus musculus with 12 samples.

Results

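The olfactory receptor genes of mouse chromosomes 9 and 11 were examined in ATAC-seq peak lists of mouse embryonic stem cells. The members were all genes of these chromosomes in the RefSeq annotation of GRCm38.p6 whose symbol starts with Olfr, which gave 283 of the 49943 genes annotated on chromosomes 1 to 19, X and Y. Chromosome 9 held 179 of them and chromosome 11 held 104. By annotation, 213 were protein-coding, 62 were pseudogenes, 7 were transcribed pseudogenes and 1 was a misc_RNA gene. Each gene was taken with 1 kb on either side, and the intervals between neighbouring Olfr genes less than 100 kb apart were added. The resulting Olfr territory covered 6.16 Mb and held 98 of the 97889 open regions of the series, where peaks of any library that overlap were joined into a region.

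Olfactory receptors are G protein-coupled receptors that bind odorants on the cilia of olfactory sensory neurons, and they form the largest gene family of the mouse genome. Their genes lie in clusters, most have a coding sequence without introns, and each mature neuron transcribes a single allele of a single receptor gene while the other copies stay packed in heterochromatin. In those neurons the transcription factors Lhx2 and Ebf, with the adaptor Ldb1, bind enhancers inside the clusters. Embryonic stem cells are the pluripotent cells of the early embryo in culture.

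ATAC-seq marks open chromatin through the insertion of sequencing adapters by the transposase Tn5. The study asked whether a synthetic human HPRT1 sequence and its counterpart HPRT1R are accessible in mouse cells, beside the rest of the genome. All cells came from a BL6xCAST line kept on gelatin in a mixture of 2i medium and serum-containing stem cell medium, both with LIF. The synHPRT1 group carried synHPRT1 on chromosome X and the synHPRT1R group carried synHPRT1R there, with 6 libraries each from 2 clones with 3 replicates per clone, and no library lacked a construct. A clone descends from 1 cell, so the spread between clones and the effect of a genotype rest on 2 clones each. Nothing in the labels tells if the replicates of a clone were cultured separately, so each p-value reflects the spread among these libraries, possibly a technical one. In bulk cells a site open in fewer cells and a site less open in every cell cannot be told apart.

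The lists held 38403 to 63704 peaks per library, and the genome-wide background pileup recovered from the deposited folds ran from 1.74 to 3.72 reads. A peak near 7 of 8 embryonic stem cell markers, among them Nanog, Sox2, Esrrb and Klf4, was listed in all 12 libraries, and Pou5f1 had one in 7. Of 6 markers of olfactory sensory neurons, Omp, Cnga2 and Rtp1 had no peak in any library, Stoml3 had one in 4, all of them synHPRT1, Adcy3 in 11 and Gnal in 12. Of 5 fibroblast markers, 1 had a peak in all 12 libraries (Pdgfra) and the others in 1 to 11. No pair of the 12 lists shared more than 0.146% identical peaks.

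The promoter windows of the members show what the region before these genes looks like in sequence. Windows of 300 bases, from 250 bases before the annotated start to 50 after it, were taken from RefSeq (GRCm38.p6) and matched by symbol. They covered 181 of the 283 genes with 183 windows. Printed here are the 2 Olfr windows that overlapped a peak of any library, those of Olfr27 and Olfr976, and the 2 nearest to a region listed in all 12 libraries, those of Olfr926 and Olfr951. Each is written 5′ to 3′ on the strand of its gene. Capitals mark matches on either strand to any of 4 motifs, and matches of different motifs may overlap. The motifs were TATAAA, the letters of a TATA box, then TAATGA and the related palindrome TAATTA, which are homeodomain sites of the kind bound by Lhx2, and finally the Ebf site, searched as CCCNNGGG.
Olfr27, chr9:39127917-39128216, plus strand: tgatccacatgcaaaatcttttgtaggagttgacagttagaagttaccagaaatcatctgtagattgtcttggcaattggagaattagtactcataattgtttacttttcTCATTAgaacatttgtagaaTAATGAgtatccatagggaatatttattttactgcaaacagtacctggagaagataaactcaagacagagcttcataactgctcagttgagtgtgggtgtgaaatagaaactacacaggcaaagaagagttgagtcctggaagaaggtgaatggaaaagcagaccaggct
Olfr976, chr9:39960995-39961294, minus strand: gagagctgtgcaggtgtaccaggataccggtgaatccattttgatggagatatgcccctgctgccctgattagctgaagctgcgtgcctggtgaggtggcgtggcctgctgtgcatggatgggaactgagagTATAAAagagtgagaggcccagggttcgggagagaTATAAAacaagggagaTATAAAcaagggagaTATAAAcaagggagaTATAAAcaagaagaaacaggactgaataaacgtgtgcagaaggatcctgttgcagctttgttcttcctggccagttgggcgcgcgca
Olfr926, chr9:38876928-38877227, plus strand: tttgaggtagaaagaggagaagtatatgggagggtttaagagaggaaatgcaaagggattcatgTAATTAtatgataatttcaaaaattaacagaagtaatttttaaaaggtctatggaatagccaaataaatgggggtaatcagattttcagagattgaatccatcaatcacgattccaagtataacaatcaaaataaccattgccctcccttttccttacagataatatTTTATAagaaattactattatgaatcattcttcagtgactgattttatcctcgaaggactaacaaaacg
Olfr951, chr9:39393543-39393842, plus strand: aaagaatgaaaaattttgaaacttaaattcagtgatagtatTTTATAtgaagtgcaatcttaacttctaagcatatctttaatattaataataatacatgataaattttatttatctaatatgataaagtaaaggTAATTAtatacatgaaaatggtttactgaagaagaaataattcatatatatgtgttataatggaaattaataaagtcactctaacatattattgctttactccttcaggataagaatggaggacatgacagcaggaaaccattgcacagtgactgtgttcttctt
The Olfr976 window held 5 TATAAA matches, 8 CpG dinucleotides and 50% G and C. The window of Olfr27 had 0 CpG and 37% G and C, that of Olfr926 had 3 CpG and 31.3%, and that of Olfr951 had 0 CpG and 25%. Olfr926 and Olfr951 had a peak in their window in 0 libraries, and Olfr27 and Olfr976 in 1 library each.

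As a set, the 183 Olfr windows were poor in CpG and rich in TATA and homeodomain letters. Their median GC content was 36.7% (24.7 to 52.7%) and their median CpG count was 1 (0 to 8). The 4023 other promoter windows of both chromosomes had a median GC content of 55.3% and a median of 10 CpG. TATAAA occurred in 37.7% of Olfr windows and in 13.6% of all 32851 promoter windows of the table. TAATGA occurred in 32.2% against 9.78%, and TAATTA in 23.0% against 5.29%. CCCNNGGG was found in 2.19% of Olfr windows against 13.7% of all windows. Among the 953 other windows of both chromosomes with at most 3 CpG, whose median GC content was 46%, the shares were 21.8% for TATAAA, 14.9% for TAATGA, 8.50% for TAATTA and 6.72% for CCCNNGGG. A match is a description of letters and not a bound site. Of the 213 protein-coding Olfr models, 160 (75.1%) were at most 1100 bp long, and 140 of these had a length that is a multiple of 3. Many annotated starts may therefore be starts of the coding sequence, and the window then lies before the coding sequence and not before a transcription start.

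Few of these genes had a listed peak. Of the 283 Olfr genes, 14 (4.95%) had a peak within their span plus 1 kb in at least 1 library, 6 (2.12%) in at least 6 libraries, 1 in at least 10 and 0 in all 12. Among the 5291 other genes of the same chromosomes, 62.3% had a peak in at least 1 library and 45.2% in at least 10. Receptor genes resemble each other in sequence, and reads that map to several of them can be lost or misplaced. How such reads were handled is not stated, and their part in these counts was not tested. In the synHPRT1 libraries the percent of Olfr genes with a peak was 0.353 at the lowest, 1.59 at the median and 3.18 at the highest. In the synHPRT1R libraries it was 0.707, 1.59 and 2.83. The same libraries had a peak at 45.4 to 55.8% of the other genes, so the Olfr and other values did not overlap. The mean was 1.62% ± 0.790 (SD, n = 12) for Olfr genes and 50.6% ± 3.03 for other genes, a difference of -49.0 percentage points ± 2.49 with Olfr lower in 12 of 12 libraries (two-sided exact sign-flip test, p = 0.000488, the smallest it can give, and 0.000732 adjusted over the 9 tests of this kind). Over the means of the 4 clones, the exact test gave p = 0.125, which is the smallest it allows.

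The contrast was also seen against short genes and other pseudogenes. Against the 4155 other genes no longer than the longest Olfr gene (28487 bp), of which 41.5% ± 3.09 had a peak per library, the difference was -39.9 points, again in 12 of 12 libraries (exact sign-flip p = 0.000488). The median length of those genes was 4688 bp, against 945 bp for Olfr genes, so the lengths were capped but not matched. Of 153 other protein-coding genes of at most 2 kb, with a median length of 1162 bp, 45.8% had a peak in at least 1 library. Among 759 other pseudogenes of both chromosomes that share was 15.5%. Olfr pseudogenes had a peak in 1 of 62 cases and protein-coding Olfr genes in 13 of 213.

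**Figure D1:**
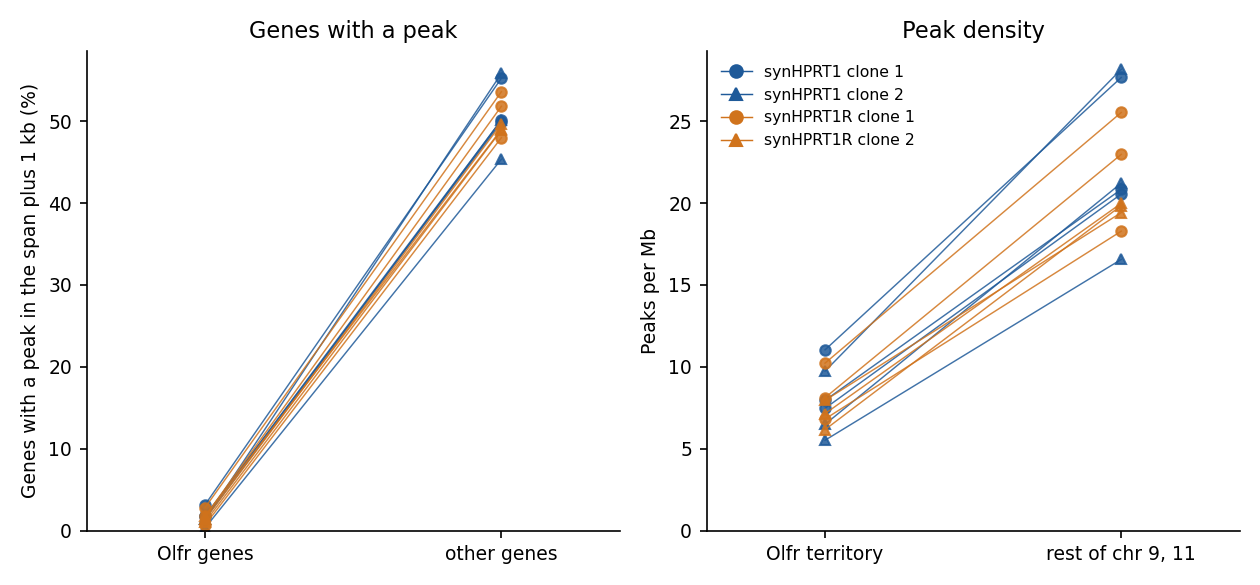
Percent of genes with a peak within the gene span plus 1 kb (left, Olfr and other genes of chromosomes 9 and 11) and peaks per Mb (right, Olfr territory and the rest of both chromosomes), with a line for each of the 12 libraries, coloured by genotype with a symbol for each clone. Every line rises from the Olfr value to the other value, and the highest Olfr share is 3.18%.

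Within the family, the few genes with a peak were mostly those with long annotated models. Of 53 protein-coding Olfr genes longer than 1100 bp, 8 (15.1%) had a peak in at least 1 library, and of the 160 shorter ones 5 (3.13%) did. A longer span offers more sequence for a peak, and the part of length in this difference was not tested. Each of these genes encodes an odorant receptor or is a pseudogene of one.

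Olfr27 (gene 258826, chromosome 9, 39128167 to 39145072, protein-coding) had a peak in 10 libraries, 5 of each genotype, the most of any member. The region lay at 39127416 to 39128014, 153 bp before the annotated start on the plus strand, with a deposited fold of 4.06 to 6.26 (median 4.61). The fold is the authors' value for the height of a summit relative to its local background, and it is used here only to describe peaks. Peaks of 9 of those libraries ended before the printed promoter window. The 162 kb before it, with 10 Olfr genes from Olfr933 to Olfr941-ps1, held no peak in any library.

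Olfr400-ps1 (gene 257876, chromosome 11, 74104741 to 74110891, pseudogene) had a peak in 8 libraries, 4 of each genotype. Its main region, 74105041 to 74105583, lay inside the gene span and had a median fold of 4.84 (2.99 to 6.28). Olfr982 (gene 258853, chromosome 9, 40074297 to 40075262) had a peak in 7 libraries, 3 synHPRT1 and 4 synHPRT1R. That region, 40074480 to 40075221, lay wholly inside a model the length of a receptor coding sequence, with a median fold of 3.87. The gene table gives no exons, so peaks inside a span could not be assigned to exons or introns.

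Olfr884 (gene 257996, chromosome 9, 38044423 to 38048153) and Olfr972 (gene 258603, chromosome 9, 39873277 to 39874221) each had a peak in 2 synHPRT1 and 4 synHPRT1R libraries. The region of Olfr884 overlapped the gene, and that of Olfr972 lay 706 bp from it, with median folds of 3.74 and 4.63. Olfr1393 (gene 258463, chromosome 11, 49263873 to 49292359), the longest member, had a peak in 3 libraries of each genotype, at 49271230 to 49271755 in 5 of them. Olfr1388 and Olfr20 had a peak in 3 libraries each. The other 6 genes, Olfr1395, Olfr376, Olfr378, Olfr851, Olfr976 and Olfr911-ps1, which is annotated as protein-coding despite its name, had a peak in 1 library each. The remaining 269 members had none.

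Olfr promoter windows seldom held a peak, also when set beside other windows with few CpG. Of the 183 Olfr windows 2 (1.09%) overlapped a peak in at least 1 library, and per library the share was 0.0911% ± 0.213 (SD, n = 12). The other windows of both chromosomes gave 44.2% ± 2.75 per library, a difference of -44.2 points (exact sign-flip p = 0.000488). For the 953 other windows with at most 3 CpG the share was 2.08% ± 0.438, and for the 939 with 4 to 8 CpG it was 11.1% ± 2.07. The 167 Olfr windows with at most 3 CpG gave 0.0499% ± 0.173 and never more than 0.599% in a library. The lowest library value for other windows of that CpG class was 1.36%, so the values of the 12 libraries did not overlap between the groups within the class. The 16 Olfr windows with 4 to 8 CpG gave 0.521% ± 1.80, from a peak in a single library. No Olfr window had 9 or more CpG, the class in which 77.7% ± 4.17 of the other windows had a peak. These classes were formed after the windows had been described and their differences were not tested. As given above, many Olfr windows may lie before a coding sequence and not before a transcription start, so the compared windows may differ in kind.

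**Figure D2:**
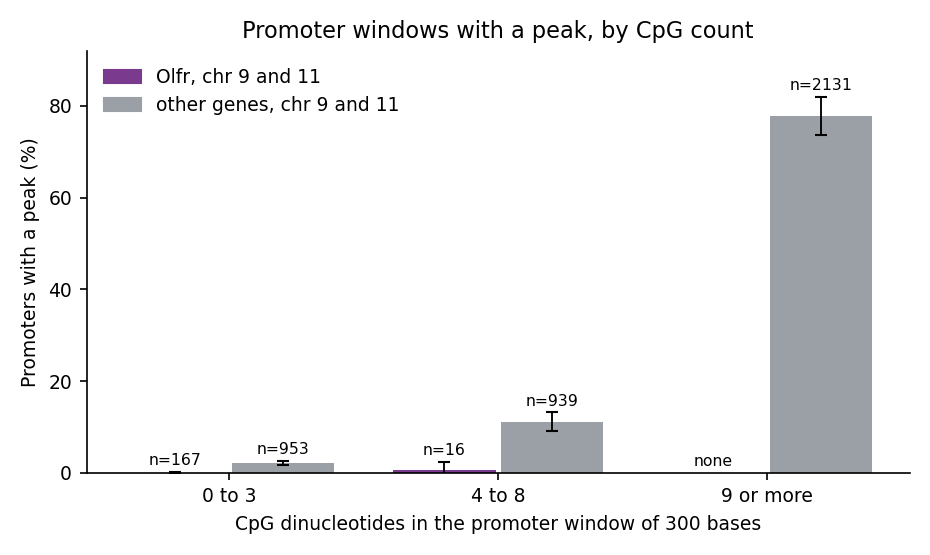
Percent of promoter windows (300 bases) with a peak, as the mean of 12 libraries with SD bars, by the number of CpG dinucleotides, for Olfr genes and other genes of chromosomes 9 and 11, with the number of windows above each bar. The Olfr bars stand at 0.0499% and 0.521% in the classes with 0 to 3 and 4 to 8 CpG, against 2.08% and 11.1% for other genes, and no Olfr window falls in the class where 77.7% of the others have a peak.

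Across the whole territory, the intervals between the genes included, peaks were sparse but present. The 6 synHPRT1 libraries listed 34 peaks at the lowest, 47.5 at the median and 68 at the highest, and the synHPRT1R libraries 38, 46.5 and 63. Per Mb this was 5.52 to 11.04 over all 12 libraries, against 16.6 to 28.2 in the rest of both chromosomes, and the ranges did not overlap. The mean density was 7.89 ± 1.69 peaks per Mb in the territory and 21.8 ± 3.64 in the rest (SD, n = 12), a ratio of 0.363 and a difference of -13.9 ± 2.22 with the territory lower in 12 of 12 libraries (two-sided exact sign-flip test, p = 0.000488; adjusted over 9, 0.000732). Without the spans plus 1 kb of all non-Olfr genes on either side of the comparison, the density was 7.08 ± 1.60 against 12.7 ± 2.70, a difference of -5.60 in 12 of 12 libraries (exact sign-flip p = 0.000488).

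Both chromosomes showed the same direction. Density was 8.42 ± 1.73 against 19.6 ± 3.22 peaks per Mb on chromosome 9 and 6.85 ± 1.85 against 23.9 ± 4.06 on chromosome 11, each lower in 12 of 12 libraries (exact sign-flip p = 0.000488; adjusted over 9, 0.000732). The percent of Olfr genes with a peak was 1.49 ± 0.902 on chromosome 9 and 1.84 ± 1.26 on chromosome 11, against 49.2 ± 2.64 and 51.7 ± 3.37 of the other genes.

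The strength of the listed peaks differed less than their number. Territory peaks had a median percentile of 44.3 ± 2.46 by deposited −log10 p within the peaks of both chromosomes of their own list, against 50.0 ± 0.487 for the rest, a difference of -5.74 ± 2.35 with the territory lower in 11 of 12 libraries (exact sign-flip p = 0.000977; adjusted over 9, 0.0011). On chromosome 11 the difference was -3.62 ± 11.5, lower in 7 of 12 libraries, and did not pass (exact sign-flip p = 0.293). Without the spans plus 1 kb of non-Olfr genes the percentiles were 50.1 ± 4.50 and 50.2 ± 1.23, and the difference of -0.0420 was not past the threshold (exact sign-flip p = 0.992).

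The number of territory peaks moved with the length of the list. Over the 12 libraries Pearson's r was 0.908 (permutation p = 0.00018; adjusted over 12 relations, 0.00216) and Spearman's rho was 0.771 (permutation p = 0.00456; adjusted, 0.0547). Without the 2 libraries farthest from the median list length r was 0.840 (permutation p = 0.00364; adjusted, 0.0146). Within synHPRT1 r was 0.942 (exact p = 0.0111; adjusted, 0.0267) and within synHPRT1R 0.859 (exact p = 0.0333; adjusted, 0.0571). As a percent of the peaks of both chromosomes, territory peaks made up 0.788 to 1.05, and this share had r = 0.271 and rho = 0.0559 with list length (permutation p = 0.393 and 0.870; adjusted, 0.492 and 0.949). An unlisted site is therefore not shown to be closed, least of all in a short list.

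The 98 regions of the territory ranged from those listed in all libraries to those of a single library. In all 12 libraries 19 regions were listed (19.4%, exact Clopper-Pearson 95% interval 12.1 to 28.6%), and in only 1 library 30 were (30.6%). Of the 10209 regions of the rest, 23.2% were listed in all 12 and 27.5% in 1 library. The interval given for the territory treats its regions as independent, though all come from the same 12 libraries. The chromosomes differed in direction for regions of 1 library, which made up 13 of 61 (21.3%) on chromosome 9, against 27.4% of its rest, and 17 of 37 (45.9%) on chromosome 11, against 27.5% of its rest. Regions in all 12 libraries made up 14 of 61 (23.0%) and 5 of 37 (13.5%), against 24.3% and 22.3%. These shares were not tested. Their density differed, with 15.9 regions per Mb in the territory and 43.0 in the rest, and 3.08 against 9.98 regions per Mb listed in all 12. In the rest at more than 1 kb from any annotated gene, there were 28.7 regions per Mb, and 4.45 per Mb in all 12 libraries.

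**Figure D3:**
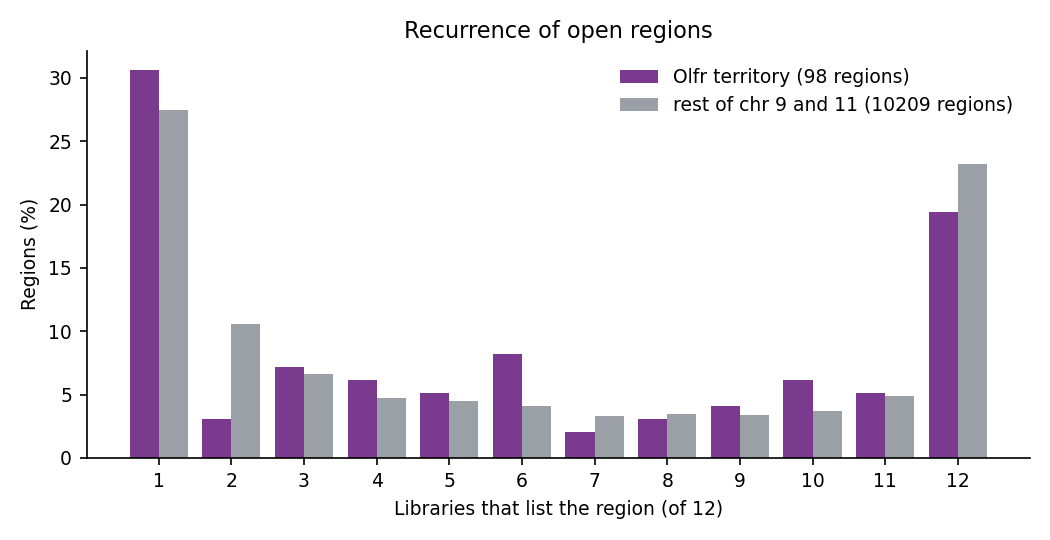
Percent of regions (bars) by the number of libraries, from 1 to 12, that list them, for the 98 regions of Olfr territory and the 10209 regions of the rest of chromosomes 9 and 11. In both sets the fullest classes are 1 library (30.6% in the territory) and 12 libraries (19.4% and 23.2%).

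With the 1 kb flank, the regions in all 12 libraries lay between the Olfr genes. The gene windows, 1.09 Mb or 17.6% of the territory, held 17 regions, of which 0 were listed in all 12 libraries and 9 in 1 library. The intervals away from any annotated gene, 4.75 Mb, held 68 regions, of which 16 were in all 12 libraries and 19 in 1 library. Stretches near other genes, 0.327 Mb, held 13 regions with 3 in all 12. Region density was 15.6 per Mb at the Olfr genes and 14.3 between genes, and the density of regions in all 12 libraries was 0 and 3.37 per Mb. Neither difference was tested, and the latter rests on 0 of 17 and 16 of 68 regions. It also rests on the 1 kb flank, since regions in all 12 libraries lay 1267 bp from Olfr951 and 1795 bp from Olfr926, within 2 kb. The median fold of regions at Olfr genes was 3.85 (3.13 to 4.96), against 4.17 (2.75 to 11.1) for all 68 regions between genes. The 16 recurrent intergenic regions had a median fold of 5.93 (4.61 to 11.1). They were picked by being listed in all 12 libraries, so that value is not a like comparison. Those 16 had a median width of 1048 bp and a median distance of 7446.5 bp to the nearest Olfr gene.

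From the side of the genes, the 183 annotated Olfr starts lay a median of 21672 bp from the nearest region of any kind and 76302 bp from the nearest region listed in all 12 libraries. A region lay within 1 kb of 4 starts (2.19%) and within 10 kb of 33 (18.0%). For the 4023 other starts of both chromosomes the median distance was 0 bp, with 60.7% within 1 kb.

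The strongest of the 19 recurrent regions belonged to a neighbour. It lay at 19621672 to 19622493 on chromosome 9, at Zfp317, a zinc finger gene inside an Olfr cluster, and overlapped the RefSeq promoter window of that gene. Its fold was 10.6 at the lowest, 12.5 at the median and 14.1 at the highest in synHPRT1 and 10.4, 12.7 and 13.6 in synHPRT1R. A second region at another gene lay at 58518839 to 58520366 on chromosome 11, within Gm21927, a pseudogene of 25638 bp. The span of that pseudogene overlaps Olfr330, and the region overlapped no RefSeq promoter window. Its folds were 8.87 to 13.4 (median 11.8) in synHPRT1 and 5.70 to 11.9 (median 8.45) in synHPRT1R, which overlapped. At Vwa5a, which encodes a protein with a von Willebrand factor A domain, the region at 38718784 to 38719633 on chromosome 9 had a median fold of 5.01. Of the 12 other protein-coding genes that overlap the territory, 9 (75%) had a peak in at least 1 library and 4 in all 12. Among the other protein-coding genes of both chromosomes, 85.9% had one in at least 1 library. These counts take the whole span of each gene plus 1 kb, also where it lies outside the territory. Among the 4, Cep112 spans 435401 bp around Olfr1397-ps1, whose stretch held no region. Mgat1 meets the territory only in the 1 kb before Olfr1393, and no territory region lay at it.

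Among the 16 recurrent regions away from any gene, the strongest lay on chromosome 11 at 49450792 to 49451268, 6004 bp from Olfr1388. Its fold was 8.05 to 12.3 in synHPRT1 (median 10.9) and 9.69 to 12.3 in synHPRT1R (median 11.3). A second region followed at 49451953 to 49452609, 7072 bp from Olfr1387, with medians of 9.32 (7.39 to 10.1) and 7.34 (6.603 to 8.76). The genotypes overlapped at both.

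On chromosome 9, the region at 38839551 to 38840752, 7364 bp from Olfr924, had a fold of 7.31 to 11.02 in synHPRT1 and 7.64 to 10.7 in synHPRT1R, with medians of 9.52 and 8.76. The region at 38874247 to 38875383, 1795 bp before the start of Olfr926, had medians of 8.15 (7.84 to 10.2) and 8.54 (7.51 to 10.7), and it lies upstream of the Olfr926 window printed above. A further one at 38407266 to 38408072, 3437 bp from Olfr147, had medians of 8.28 and 7.43. The region at 38964384 to 38965537, 10141 bp from Olfr933, ranged from 4.02 to 8.65 in synHPRT1 and from 5.95 to 9.30 in synHPRT1R. The nearest to an Olfr gene was that at 39396004 to 39396597, 1267 bp from Olfr951, with medians of 5.33 and 5.71. It lies past the end of that gene, downstream of the window printed above and 2211 bp from the annotated start.

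The other 9 had median folds over all 12 libraries of 4.61 to 6.48. On chromosome 9 they lay nearest to Olfr871 (9560 bp), Olfr857 (17104 bp), Olfr838-ps1 (5278 bp), Olfr143 (11850 bp), Olfr834 (6338 bp), Olfr24 (23286 bp) and Olfr875 (9059 bp). On chromosome 11 they lay nearest to Olfr408-ps1 (7529 bp) and Olfr380 (15284 bp). The synHPRT1 and synHPRT1R folds overlapped at each of the 19. The same share over the 23285 regions of the genome listed in all 12 libraries is not given here. The count therefore tells nothing particular about these 19 regions.

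**Figure D4:**
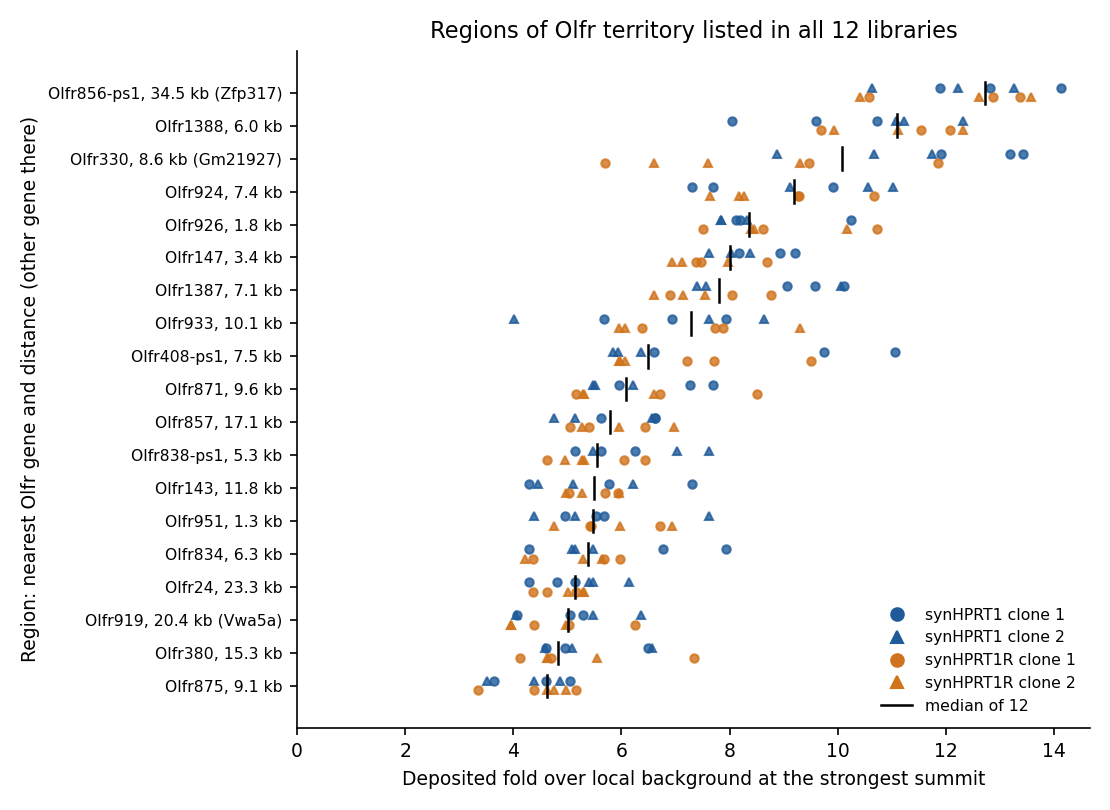
Deposited fold of each of the 12 libraries (points, coloured by genotype with a symbol for each clone) and the median of 12 (black line) for the 19 regions of Olfr territory listed in all 12 libraries, named by the nearest Olfr gene, its distance in kb and any other gene there. The region at Zfp317 is the highest, with a median of 12.7, the region nearest Olfr875 the lowest, with 4.61, and the colours overlap in every line.

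The territory fell into 12 stretches, 10 with several Olfr genes and 2 with a single gene, and 4 stretches held no region at all. The largest, Olfr160 to Olfr986 on chromosome 9, held 127 genes in 2479 kb with 40 regions, 8 of them in all 12 libraries, and 6 of its genes had a peak in at least 1 library. It had 15 to 31 peaks per library (22.5 ± 5.42, n = 12). The stretch from Olfr24 to Olfr18 on the same chromosome held 51 genes in 1583 kb with 21 regions, 6 of them in all 12 libraries, and 8 to 15 peaks per library (11.8 ± 2.34), but only 1 gene with a peak. On chromosome 11, Olfr20 to Olfr412 held 44 genes in 1017 kb with 16 regions, 2 in all 12, and 4 to 9 peaks per library (5.75 ± 1.60).

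In peaks per Mb these 3 stretches had means of 9.08, 7.42 and 5.66. The stretch of 15 genes from Olfr1393 to Olfr1380 on chromosome 11, which holds the pair of strong regions near Olfr1388, had 10.2, and the 23 genes from Olfr30 to Olfr311 had 9.85. The 3 genes from Olfr1373 to Olfr1371 had 14.0, the 4 from Olfr1396 to Olfr1394 had 3.32 and the 8 from Olfr1379-ps1 to Olfr1374-ps1 had 2.69. These 5 stretches had means of 0.167 to 3.83 peaks per library, so their order rests on few peaks.

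**Figure D5:**
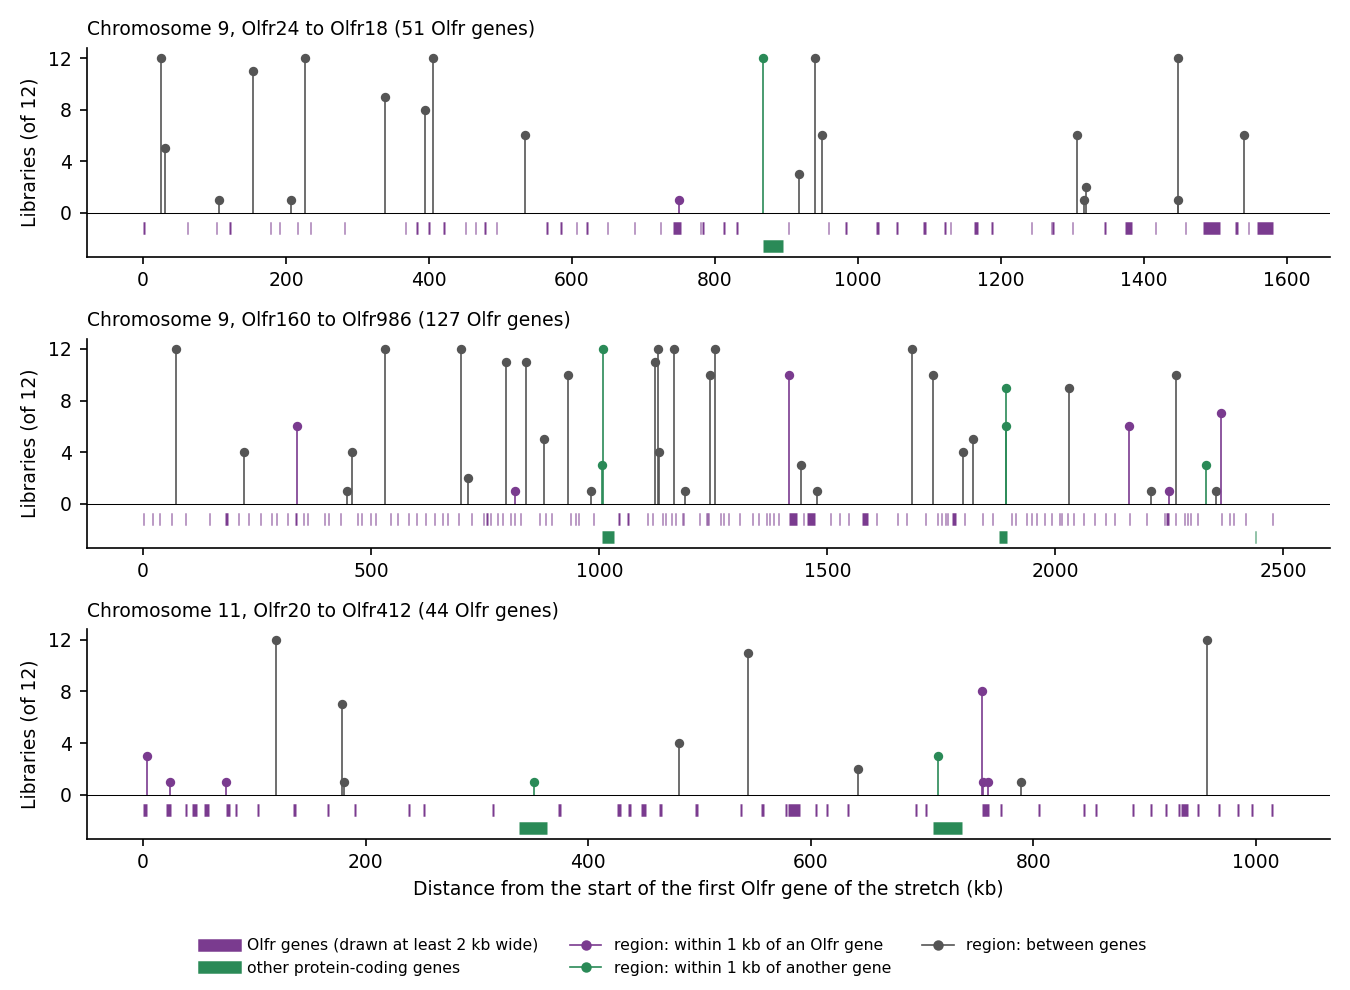
The 3 largest Olfr stretches, with the distance in kb from the first Olfr gene on the x axis and, for each region, the number of libraries (of 12) that list it as the height of the stem, coloured by position at an Olfr gene, at another gene or between genes, and Olfr and other protein-coding genes as bars below. The stems that reach 12 are grey or green and none is purple, the colour of regions within 1 kb of an Olfr gene.

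Long stretches without a peak in any library were frequent. The territory was divided by its regions into 91 peak-free stretches with a median of 40.6 kb, against 9.09 kb in the rest, and 19 (20.9%) reached 100 kb against 4.20% in the rest. The longest ran for 356 kb on chromosome 9, from 19705087 to 20060671, and held 13 Olfr genes from Olfr857 to Olfr867. In the rest, 13 stretches (0.127%) were at least as long. The next were 215 kb with 7 genes from Olfr844 to Olfr850, 207 kb with 9 genes from Olfr944 to Olfr951, both on chromosome 9, then 171 kb with 4 genes from Olfr383-ps1 to Olfr387-ps1 and 166 kb with 9 genes from Olfr402 to Olfr408-ps1 on chromosome 11. In fixed windows of 100 kb, 11 of 60 territory windows (18.3%) held no region, against 279 of 2326 windows of the rest. Only 28.3% of territory windows held a region listed in all 12 libraries, against 56.5%.

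No difference between the synHPRT1 and synHPRT1R cells was detected at these genes. The percent of Olfr genes with a peak was 1.65 ± 0.912 over the synHPRT1 libraries and 1.59 ± 0.733 over the synHPRT1R libraries (SD, n = 6 each; two-sided exact permutation test, p = 1, where the smallest possible is 0.00216). The 2 synHPRT1 clones had means of 2.24 and 1.06 and lay on either side of the synHPRT1R clones, at 1.77 and 1.41. Territory density was 8.04 ± 2.05 and 7.74 ± 1.42 peaks per Mb (exact permutation p = 0.799; adjusted over 6 tests, 0.958), with clone means of 8.82 and 7.25 against 8.39 and 7.09. With 2 clones against 2, an exact test cannot go below p = 0.333. The difference between Olfr and other genes was -49.5 ± 3.30 points for synHPRT1 and -48.6 ± 1.49 for synHPRT1R libraries (exact permutation p = 0.580; adjusted, 0.870).

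Region by region, 79 of the 98 were listed in 1 to 11 libraries and could be tested for presence by genotype. With Fisher's exact test, adjusted by Benjamini-Hochberg over all 74604 such regions of the genome, 0 of 79 passed, where the share called over all regions was 0%. At an unadjusted p under 0.05, 0 of 79 territory regions and 164 (0.220%) of all regions passed. The smallest p, 0.0801, was that of a region near Olfr148 at AW551984 (chromosome 9, 39602413 to 39602862; 1 synHPRT1 and 5 synHPRT1R libraries) and of a region near Olfr330 at Gm21927 (chromosome 11, 58520992 to 58521494; 5 and 1). Next came a region near Olfr836 (chromosome 9, 19093078 to 19093825; 6 and 3; Fisher's exact test, p = 0.182). The adjusted p was 1 for all 3 by the same exact test. Among 14 testable Olfr genes 0 passed and 0 had an unadjusted p under 0.05, where 0% of 9804 genes passed and 23 (0.235%) had an unadjusted p under 0.05. Olfr884 and Olfr972, at 2 and 4 libraries each, had the smallest gene p of 0.567 (Fisher's exact test), and all others had p = 1. Presence in 6 against 6 libraries is coarse, since 3230 fully separated regions would be needed for any to pass after adjustment.

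Olfr genes elsewhere in the genome and other clustered sensory receptor genes also had few peaks. Of 1145 Olfr genes on the other chromosomes, 72 (6.29%) had a peak in at least 1 library, 20 (1.75%) in at least 10 and 13 (1.14%) in all 12, against 14 (4.95%), 1 (0.353%) and 0 of 283 on chromosomes 9 and 11. Their promoter windows had a peak in 0.425% ± 0.126 per library and a median of 1 CpG. Of 645 vomeronasal receptor genes (Vmn1r and Vmn2r, receptors for pheromones), 64 (9.92%) had a peak in at least 1 library and 30 (4.65%) in all 12. Among 27 keratin genes of chromosome 11, which form another tissue-specific cluster, 8 (29.6%) had a peak in at least 1 library, and of 23 keratin-associated genes 2 (8.70%) did. These family shares were not tested against each other.

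For genes that act with olfactory receptors, shares with a peak lay between those of all annotated genes and of other protein-coding genes. Of 14 genes of olfactory signal transduction, 10 had a peak in at least 1 library, 7 in at least 10 and 5 in all 12, where over all annotated genes the shares were 53.4%, 38.7% and 33.8%. Of the other protein-coding genes of chromosomes 9 and 11, 85.9% had a peak in at least 1 library, 70.8% in at least 10 and 61.3% in all 12. These differences were not tested. Gnal (the G protein alpha subunit), Cnga4 and Cngb1 (subunits of the olfactory cyclic nucleotide-gated channel), Slc24a4 (an ion exchanger) and Pde1c (a phosphodiesterase) had a peak in 12 libraries, and Adcy3 (the adenylate cyclase) in 11. The channel subunit Cnga2, the olfactory marker protein Omp and the receptor transporters Rtp1 and Rtp2 had none. A peak anywhere in the span was counted, so a longer gene offers more sequence for a peak. The part of gene length or of use in other tissues was not tested.

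Genes for regulators of receptor choice and of its heterochromatin nearly all had a peak in every library. Of 17, 16 had a peak in all 12 libraries, where 33.8% of all genes and 61.3% of the other protein-coding genes of chromosomes 9 and 11 did, and the difference was not tested. Among the 16 were Lhx2, Ldb1 and Ebf1 to Ebf4, which bind or hold together the receptor enhancers, Kdm1a, a histone demethylase, Ehmt1 and Ehmt2, methyltransferases for histone H3 lysine 9, and Lbr, the lamin B receptor. Setdb1, another methyltransferase for that residue, had a peak in 8. Here too a peak anywhere in the span was counted, and the part of gene length was not tested. A peak at a gene gives no measure of its transcription.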

How the data were processed

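Peak lists of 12 ATAC-seq libraries were used. Each library has its own list. Per the submitters' processing notes, MACS2 2.1.0, Bowtie2 2.2.9, SAMtools 1.9, bcl2fastq 2.20 and deepTools 3.5.0 were used, with the builds GRCm38 and mm10. How the Tn5 shift, duplicates, multi-mapping reads and blacklisted sites were handled is not stated in those notes or the labels, and discarded multi-mapping reads would lower peak counts at similar receptor genes. The deposited columns are a score per peak, the fold of the summit over local background (a ratio), the −log10 p-value and −log10 q-value of the summit and the summit offset. The lowest deposited −log10 q-value in a list ran from 1.30 to 1.33. No counts were used, so depth is known only through list length and the background pileup recovered from the steps of the deposited folds.

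Groups came from the sample titles. Regions are unions of peaks overlapping by at least 1 bp. Gene spans came from RefSeq GRCm38.p6, without exons. The rest of a chromosome ran from its first to its last annotated gene. On chromosome 11 this included 43 gene rows before the first region, which start at 7221 and hold no Olfr gene. The 100 kb windows ran from the first to the last region. Within-library differences were tested by exact sign flips and genotypes by exact permutation, both two-sided. Presence by genotype was tested per region and per gene (Fisher's exact test, two-sided), and the p-values were adjusted by Benjamini-Hochberg over all of them, at a threshold of 0.05. The functions were tested on simulated data (Python 3.11.15, numpy 2.4.6, scipy 1.17.1, pandas 2.3.3).

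The members, lists and tests were chosen with earlier results of these data known. Named were Olfr genes in order of libraries with a peak, territory regions in all 12 libraries, the 3 genes and regions with the smallest Fisher p, other genes in the territory and the 5 longest peak-free stretches. Alternatives varied the flank, the peak threshold, list length, overlap, members, intervals, comparison genes and the libraries included. No genome was used, so sequences under peaks were not read.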

Additional observations from a re-analysis of the deposited data

Results flagged for a closer look

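Of 50 groups of 6 libraries checked for a sample far from the others, 1 was picked out, where chance picks about 1 in 20. In the recurrent region near Olfr926, the library of synHPRT1 clone 1 replicate 1 had a fold of 10.2, and its gap to the next synHPRT1 library made up 0.796 of the range of the 6. The synHPRT1R libraries reached 10.7 at the same region, so the value lies within the range of the 12 libraries.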

How the results depend on the processing

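The lower share of Olfr genes with a peak kept its direction and its call in all 21 alternatives, with differences of -74.4 (against other protein-coding genes) to -39.9 points, and the lower density did so in all 19, from -14.3 to -5.60 peaks per Mb, the latter without non-Olfr gene spans. The lower strength rank held in 17 of 18 alternatives, was -12.2 at a −log10 q of at least 5 and -3.33 (exact p = 0.0195) with intervals under 50 kb, against -5.74, and was lost without the spans plus 1 kb of non-Olfr genes (-0.0420, exact p = 0.992). The cause was not tested. The genotype differences, small and not past the threshold, turned in direction with lists cut to equal length, to -0.118 points of Olfr genes (exact permutation p = 0.829) and -0.568 peaks per Mb (p = 0.149). Leaving out 1 library at a time gave -0.247 to 0.318 points and -0.303 to 0.801 peaks per Mb. The points turned negative without synHPRT1 clone 1 replicate 3 (-0.247), synHPRT1R clone 1 replicate 3 (-0.118) or synHPRT1R clone 2 replicate 1 (-0.0471), and the density without synHPRT1 clone 1 replicate 3 (-0.303), synHPRT1 clone 2 replicate 1 (-0.0433) or synHPRT1R clone 2 replicate 1 (-0.0162). With the replicate number as a replicate block, the differences of 0.0589 points and 0.298 peaks per Mb had exact p = 1 and 0.815, and no call changed. Correlations of the deviations of libraries with the same number were -0.0550 to 0.0968 (mean 0.00434, 12 pairs). For different numbers they were -0.0779 to 0.0413 (mean -0.00216, 24 pairs). The difference was not tested, and such values cannot tell if libraries with the same number were handled together.

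Counts near the threshold moved. Olfr genes with a peak in at least 1 library numbered 22 with 2 kb flanks, 7 at a −log10 q of at least 5 and 9 with lists of equal length, against 14. Those with at least 10 libraries numbered 4 with 2 kb flanks and 0 without flanks, at the stricter q or with equal lists, against 1. That 1 gene, Olfr27, has a peak in 10 libraries, and leaving out any of these gave 0, so the range was 0 to 1. Territory regions numbered 63 at the stricter q, against 98, and the share in all 12 libraries ran from 15.9 to 23.9%. The promoter window and the bounds from first to last region were added after seeing the data. Depth limits weak sites, and an unlisted site is only not detected.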
